A study of Mus musculus with 4 samples.

Results

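Type I interferon-stimulated genes are the genes that cells switch on when type I interferon binds its receptor. A list of 37 mouse gene symbols of this kind was looked up by symbol in the gene column of the count files, and 35 were found among the 32285 genes listed, each in 1 row. Mx1 and Mx2 were not found under those symbols and were not analysed here. Genes entered by their symbols and not by a cut on measured values, but the list was chosen with earlier results of these data known. Single-cell RNA sequencing had been done on mouse lung cells depleted of CD45-positive cells and then selected for CD31, with 1 library in each of 4 groups. PNX usually stands for pneumonectomy, in which part of the lung is cut away. Wild-type mice gave the sham-operated library (sham) and a library taken 7 days after the operation (WT PNX). Conditional knockout mice gave the libraries called M3cKO and Foxo1cKO below, both of them also taken 7 days after PNX, so sham is the one library without it. The gene that M3 stands for, what drives the deletions, the age and strain of the animals, the floxed alleles and the number of animals in each library were not stated in the sources used here.

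Type I interferons are secreted by cells that sense foreign or misplaced nucleic acid, and almost every nucleated cell carries their receptor, a dimer of IFNAR1 and IFNAR2. The receptor's kinases activate STAT2, which joins IRF9 in a complex named ISGF3 that binds the interferon-stimulated response element in promoters. The target genes block viral entry, replication and release, sense more nucleic acid, and include both amplifiers and brakes of the pathway. Lung endothelium, which lies between blood and alveolar air, expresses many of them at a tonic level without infection.

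The response element links the genes by sequence, so the promoters of Isg15 and of 3 genes of the Ifit cluster are shown as they stand in RefSeq's mouse table (build GRCm38.p6). Each stretch covers 150 bases, from 200 to 51 bases upstream of the annotated start, and runs 5′ to 3′ on the strand of the gene. Capitals mark the letters of the response element searched here, GAAA followed by any 2 bases and GAAA again, or the same on the other strand, TTTC followed by any 2 bases and TTTC.

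Isg15 (chr4:156200869-156201018, minus strand): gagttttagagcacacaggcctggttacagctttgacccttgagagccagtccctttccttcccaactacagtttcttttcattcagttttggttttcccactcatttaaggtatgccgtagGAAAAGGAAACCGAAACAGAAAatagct

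Ifit1 (chr19:34640689-34640838, plus strand): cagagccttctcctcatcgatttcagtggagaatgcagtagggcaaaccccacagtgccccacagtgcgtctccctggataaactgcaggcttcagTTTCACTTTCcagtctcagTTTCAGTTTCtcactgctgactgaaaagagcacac

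Ifit3 (chr19:34583329-34583478, plus strand): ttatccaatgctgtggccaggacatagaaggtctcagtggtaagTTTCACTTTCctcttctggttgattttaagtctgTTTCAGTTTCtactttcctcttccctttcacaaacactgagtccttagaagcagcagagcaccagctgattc

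Ifit3b (chr19:34607757-34607906, plus strand): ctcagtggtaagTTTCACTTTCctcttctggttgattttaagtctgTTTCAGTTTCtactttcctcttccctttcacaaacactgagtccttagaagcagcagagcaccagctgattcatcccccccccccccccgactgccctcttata

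The Isg15 stretch holds 3 overlapping matches and each Ifit stretch holds 2. Ifit3 and Ifit3b share an unbroken run of 169 bases in their promoters, shifted by 32 bases. Of the 37 symbols 27 had a promoter in the table. The motif, searched on both strands of the 300 bases from 250 before to 50 after the start, was present in 12 of these 27 genes (44.4%) and in 3.99% of the 27025 genes of the table. The 12 were Bst2, Eif2ak2, Ifih1, Ifit1, Ifit3, Ifit3b, Isg15, Oas1a, Oas3, Rsad2, Stat2 and Trim30a. TTCNNNGAA, the letters of the gamma-activated sequence, was present in 6 of the 27 genes (22.2%) and in 9.55% of all. A match is a run of letters and not a shown binding site.

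Cells were called endothelial when they held at least 500 genes, at most 10% mitochondrial UMIs (unique molecular identifiers, each counted as 1 RNA molecule), at least 2 UMIs over Pecam1, Cdh5, Cldn5, Egfl7, Ramp2 and Tie1, and none of Ptprc, Epcam, Col1a1 or Col1a2. This left between 2491 (M3cKO) and 4665 (sham) endothelial cells a library with 6492399 to 13691550 summed UMIs. Levels are in CPM, which divides a gene's UMIs by that sum in units of 1000000, and the intervals given are 95% intervals for counting error only, since 1 library a group leaves no spread between animals and no test. Ptprb, Calcrl and Cd93, endothelial genes outside the gate, were at 1932, 1947 and 2326 CPM as means of the 4 libraries. Foxo1 was at 196 CPM in sham, 208 in WT PNX, 185 in M3cKO and 70.1 in Foxo1cKO, which goes with the label of the last. The M3cKO label could not be checked. Markers of other lung cells summed to 132 to 553 CPM for epithelium, 38.9 (sham) to 439 for platelets and 3.70 to 80.7 for fibroblasts in the endothelial sums, and their part in the results was not tested. Library pairs shared 68 to 111 barcodes. The labels state no sex, and the female transcript Xist had 1812 UMIs in WT PNX, 1902 in Foxo1cKO and 0 in the remaining libraries. The sham and M3cKO cells thus differ from WT PNX also by lacking female cells.

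In endothelium the interferon-stimulated genes as a group were higher in Foxo1cKO than in WT PNX and showed no common direction in the other comparisons. Their summed level was 2246 CPM in sham (2217 to 2275), 2251 in WT PNX (2226 to 2277), 2115 in M3cKO (2079.6 to 2150.5) and 2958 in Foxo1cKO (2928 to 2988). The first 3 libraries lay close together and Foxo1cKO stood above them, 1.31-fold over WT PNX (1.29 to 1.33) and 1.32-fold over sham (1.30 to 1.34). A gene counted as measured at a mean of at least 10 CPM over the 4 libraries, which 33 of the 35 passed, and as higher or lower at 1.5-fold on CPM + 5. Oas1a and Oas3, with means of 3.58 and 1.12 CPM, did not pass. All 3 comparisons use WT PNX, so their values are not independent of each other.

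In Foxo1cKO against WT PNX, 11 of the 33 genes were higher and 0 lower, where 0.562% of the 8718 genes measured were higher and 0.551% lower. The 11 were Rsad2, Isg15, Ifit1, Rtp4, Ifit3, Ifit3b, Oasl2, Ifi44, Cmpk2, Ifi27l2a and Irf7. The median log2 ratio over the 33 was 0.32, against -0.00 over all genes measured, and 33 of 33 lay above 0 where 49.0% of all genes did. Foxo1cKO held the highest level of the 4 libraries in 24 of the 33 genes, which was so for 24.9% of all genes. Isg15, Rtp4 and Ifi27l2a were at least 1.5-fold above each of the other libraries there, a pattern of 13 of the 8718 genes (0.149%). Set against sham instead, Foxo1cKO also had 11 genes higher and 0 lower (background 7.05% and 4.91%), with Ifit2, Xaf1, Eif2ak2 and Samd9l among them in place of Irf7, Oasl2, Ifi44 and Cmpk2.

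In WT PNX against sham, 3 of the 33 genes were higher (Ifi27l2a, Ifit2 and Samd9l) and 2 lower (Zbp1 and Oas2), where 7.38% of all genes were higher and 4.68% lower. The shares of the group were thus near those of all genes, and its median log2 ratio was -0.08 against 0.04. In M3cKO against WT PNX, 2 were higher (Rsad2 and Oas2) and 3 lower (Samd9l, Ifit2 and Ifih1), where 4.67% of all genes were higher and 8.65% lower. The median was -0.10, against -0.12 over all genes. By these measures, over all endothelial cells, the group did not stand apart from all genes in either comparison. Both comparisons also differ in female cells. In male-type cells alone, by the split given below, M3cKO had 2 genes higher and 7 lower than WT PNX, with a median of -0.25. WT PNX had 3 higher and 1 lower than sham there, with a median of -0.01. The shares over all genes were not computed for these cells, so whether the group stands apart in them was not tested.

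**Figure D1:**
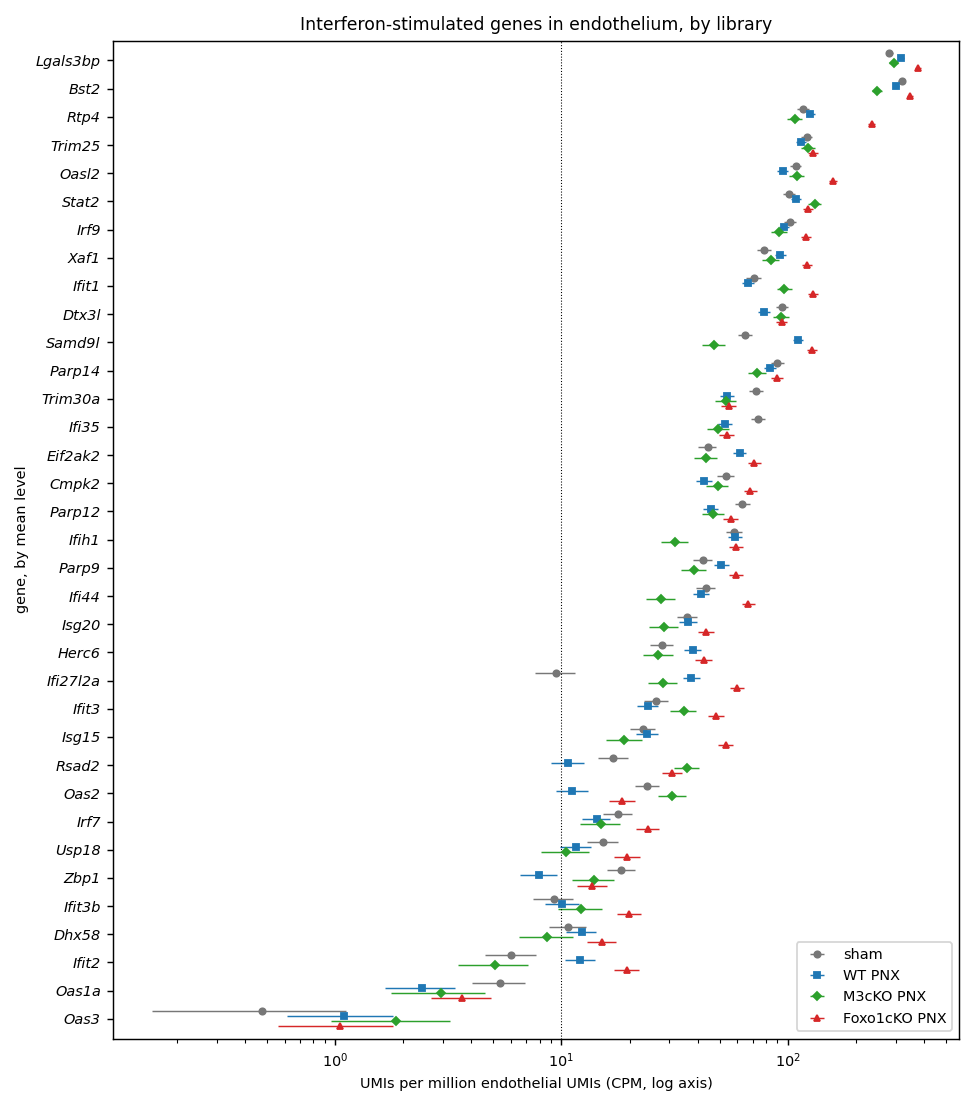
Level of each of the 35 genes in endothelium, in CPM on a log axis, for the 4 libraries (1 marker each, bars are exact Poisson 95% intervals for counting error), with the dotted line at 10 CPM. Foxo1cKO lies rightmost for 24 of the 33 genes past the line on average, and Oas1a and Oas3 lie left of it.

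Among the signalling factors, Irf7 was the member that was higher in Foxo1cKO. Irf7, the transcription factor that amplifies interferon production, was at 17.7 CPM in sham, 14.3 in WT PNX, 14.9 in M3cKO and 24.1 in Foxo1cKO. The ratio of the last to WT PNX was 1.68 (1.40 to 2.02), just inside the 1.5-fold rule at a log2 ratio of 0.59. It overlaps Phrf1 on the other strand, and whether the counting used strand is not given in the sources used here. The ISGF3 subunits were steadier. Irf9 was at 102 CPM in sham, 96.3 in WT PNX, 91.2 in M3cKO and 121 in Foxo1cKO. Stat2 was at 102, 109, 132 and 123 CPM in the same order, so here M3cKO was the highest. Usp18, a protease that removes ISG15 from proteins and restrains the receptor, ranged from 10.5 CPM in M3cKO to 19.5 in Foxo1cKO, just short of the rule against WT PNX at 0.56.

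The IFIT proteins bind foreign RNA ends and block their translation, and their genes lie side by side on chromosome 19. Ifit1 (chr19:34640871-34650009, ENSMUSG00000034459) was at 70.7 CPM (65.7 to 76.0) in sham, 66.8 (62.6 to 71.3) in WT PNX, 96.7 (89.3 to 105) in M3cKO and 129.7 (123 to 136) in Foxo1cKO. Both knockout libraries thus lay above both wild-type ones, with a ratio of 1.94 (1.79 to 2.11) for Foxo1cKO over WT PNX and a log2 ratio of 0.50, within the rule, for M3cKO. Ifit3 had the same order, at 26.2, 24.0, 34.7 and 48.2 CPM in sham, WT PNX, M3cKO and Foxo1cKO. So did Ifit3b apart from its lowest library, at 9.24, 10.1, 12.2 and 19.9 CPM. Their ratios of Foxo1cKO to WT PNX were 2.01 (1.75 to 2.30) and 1.98 (1.60 to 2.45). Ifit3 and Ifit3b are near-copies: of all 50-base windows of their annotated transcripts, 51.2% of those of Ifit3 occur in Ifit3b and 44.5% the other way round, so reads may have been split or lost between them and each value is uncertain. Ifit2 followed another order, at 6.0 CPM in sham, 12.1 in WT PNX, 5.08 in M3cKO and 19.4 in Foxo1cKO. WT PNX was 2.02-fold (1.5 to 2.74) over sham for it, and it was 2.39-fold lower (1.63 to 3.58) in M3cKO than in WT PNX. Its mean lay near the 10 CPM floor. Without the proliferating cells the mean was 9.99 CPM and Ifit2 was not counted, at 2.02-fold over sham and 2.82-fold lower in M3cKO. Without the 1% of cells richest in the listed genes the mean was 9.20 CPM, at 1.86-fold and 2.66-fold. With at most 5% mitochondrial UMIs it was 1.69-fold lower in M3cKO and within the rule.

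Isg15 encodes a ubiquitin-like protein that is joined to other proteins during the response. Isg15 (chr4:156199424-156200818, ENSMUSG00000035692) was at 22.9 CPM (20.1 to 26.0) in sham, 24.0 (21.4 to 26.7) in WT PNX, 18.9 (15.7 to 22.6) in M3cKO and 53.3 (49.3 to 57.5) in Foxo1cKO. The intervals of the first 3 libraries overlapped, though the ratio of M3cKO to WT PNX was 0.791 (0.637 to 0.976). Foxo1cKO stood apart at 2.22-fold (1.95 to 2.55) over WT PNX. The ligases did not share this size of difference. Trim25, which ubiquitinates the RNA sensor RIG-I, was at 122, 115, 123 and 129.8 CPM in sham, WT PNX, M3cKO and Foxo1cKO. Herc6, the main ligase that attaches ISG15 in mice, lay between 26.8 CPM in M3cKO and 42.7 in Foxo1cKO, and 12.0% of its transcript windows are shared with the model gene Gm45193.

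Oligoadenylate synthetases make the messenger that activates RNase L when they meet double-stranded RNA, and Oasl2 is a related protein. Oasl2 was at 108 CPM in sham, 94.9 in WT PNX, 109.7 in M3cKO and 159 in Foxo1cKO, 1.67-fold (1.56 to 1.79) over WT PNX in the last. Oas2 was at 23.9, 11.2, 31.0 and 18.5 CPM in that order, so the highest and lowest libraries were M3cKO and WT PNX. Oas2 was 2.14-fold lower (1.74 to 2.63) in WT PNX than in sham and 2.77-fold higher (2.23 to 3.44) in M3cKO than in WT PNX. The first of these was 1.53-fold, within the rule on CPM + 5, both with at most 5% mitochondrial UMIs and in cells thinned to 2000 UMIs. Oas1a lay between 2.41 CPM in WT PNX and 5.34 in sham, with 57.6% of its transcript windows shared with Oas1g, and Oas3 between 0.476 CPM in sham and 1.85 in M3cKO.

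Rsad2 and Cmpk2 are divergent neighbours on chromosome 12 (chr12:26442746-26456452 on the minus strand and chr12:26469204-26479837 on the plus strand) whose products together make a chain-terminating nucleotide. Rsad2, which encodes viperin, was at 17.0 CPM (14.6 to 19.6) in sham, 10.7 (9.0 to 12.5) in WT PNX, 35.7 (31.3 to 40.6) in M3cKO and 30.9 (27.9 to 34.2) in Foxo1cKO. It had the largest log2 ratio of the 33 genes in Foxo1cKO against WT PNX (1.20; 2.90-fold, 2.39 to 3.54) and in M3cKO against WT PNX (1.38; 3.35-fold, 2.71 to 4.15). Much of the Rsad2 RNA lay in few cells. The 10 endothelial cells richest in Rsad2 held 39.9% of its UMIs in sham, 60.3% in WT PNX, 75.9% in M3cKO and 64.4% in Foxo1cKO. In the remaining cells Rsad2 was at 10.2, 4.25, 8.67 and 11.1 CPM in the same order, with WT PNX the lowest and ratios to it of 2.61 for Foxo1cKO and 2.04 for M3cKO. Without the 1% of cells richest in the listed genes its mean was 9.39 CPM, under the 10 CPM floor, and its ratios to WT PNX were 2.46 for Foxo1cKO and 2.21 for M3cKO. Cmpk2 was spread more evenly, at 53.2 CPM in sham, 42.8 in WT PNX, 49.0 in M3cKO and 68.4 in Foxo1cKO, 1.60-fold (1.44 to 1.78) over WT PNX in the last.

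Samd9l, a restriction factor that halts translation and restrains growth, divided the libraries into pairs. In sham Samd9l was at 64.8 CPM (60.0 to 69.9) and in M3cKO at 47.1 (42.0 to 52.7). WT PNX had 111 CPM (105 to 116) and Foxo1cKO 128 (121 to 134). WT PNX was 1.71-fold (1.56 to 1.87) over sham and M3cKO 2.35-fold lower (2.07 to 2.66) than WT PNX. Ifit2 was the other listed gene with both WT PNX and Foxo1cKO at least 1.5-fold above both sham and M3cKO, a pattern of 2.03% of all genes. The same pair of libraries holds the female cells. Within WT PNX, Samd9l was at 109.5 CPM in male-type and 110.6 in female-type cells, by the split on sex transcripts given below. In male-type cells alone WT PNX was 1.49-fold over sham, just short of the rule, and Samd9l still counted as lower in M3cKO than in WT PNX. Isg20, an exonuclease that degrades RNA, varied less, from 28.3 CPM in M3cKO to 43.6 in Foxo1cKO.

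The RNA sensors and the kinase PKR set M3cKO apart in 1 gene. Ifih1, which encodes the double-stranded RNA sensor MDA5, was at 57.8 CPM in sham, 58.6 in WT PNX, 31.7 in M3cKO and 59.1 in Foxo1cKO. The other 3 libraries agreed within counting error, and M3cKO was 1.85-fold lower (1.58 to 2.16) than WT PNX. Eif2ak2, which encodes PKR, was at 44.2, 61.3, 43.4 and 71.3 CPM in the same order, each ratio to WT PNX within the rule. Dhx58, the regulator LGP2, lay between 8.63 CPM in M3cKO and 15.1 in Foxo1cKO.

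No gene of the PARP and DTX3L group was higher or lower in any of the 3 comparisons. These enzymes attach ADP-ribose or ubiquitin to proteins and the PARP9 and DTX3L proteins act as a complex. Parp14 was at 90.0 CPM in sham, 83.4 in WT PNX, 73.2 in M3cKO and 89.8 in Foxo1cKO. Parp12 was at 63.0, 45.6, 46.8 and 56.0 CPM and Dtx3l at 94.4, 78.7, 93.6 and 94.1 CPM in that order. Parp9, which overlaps Dtx3l on the other strand, lay between 38.5 CPM in M3cKO and 59.0 in Foxo1cKO. For Parp12, Parp14 and Dtx3l the sham library was the highest, unlike most of the list. For Parp14 and Dtx3l sham and Foxo1cKO agreed within counting error.

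Ifi27l2a, which encodes a small interferon-induced membrane protein, showed the largest PNX difference of the list. It was at 9.43 CPM (7.67 to 11.5) in sham, 37.5 (34.4 to 40.9) in WT PNX, 28.0 (24.1 to 32.4) in M3cKO and 59.8 (55.5 to 64.2) in Foxo1cKO. All 3 PNX libraries lay above sham, WT PNX by 3.98-fold (3.20 to 4.99), and Foxo1cKO lay 1.59-fold (1.42 to 1.79) over WT PNX. Ifi27l2a was higher still in blood cells, with means over the libraries of 260.5 CPM in B, 458 in T and 524 in myeloid cells, against 33.7 in endothelium. The summed CPM of the 6 B, 6 T and 12 myeloid cell markers in the endothelial sums were 29.6, 22.3 and 114 for sham, 105, 49.7 and 223.5 for WT PNX, 57.1, 113 and 190.2 for M3cKO and 83.9, 75.7 and 169 for Foxo1cKO, and their part in the Ifi27l2a difference was not tested. None of these 24 markers was at 0 in all libraries. Zbp1, a sensor of Z-form nucleic acid that can start necroptosis, went the other way, at 18.4 CPM in sham, 7.96 in WT PNX, 13.9 in M3cKO and 13.7 in Foxo1cKO. It was 2.31-fold lower (1.82 to 2.95) in WT PNX than in sham, and 1.64-fold lower, within the rule on CPM + 5, in male-type cells. With at most 5% mitochondrial UMIs the mean of Zbp1 was 9.38 CPM and it was not counted, at 2.20-fold lower. Xaf1, which promotes apoptosis, was at 78.8, 92.8, 84.1 and 121 CPM in that order.

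The membrane and secreted products Bst2 and Lgals3bp stayed within the rule. Bst2, or tetherin, which holds budding virus at the cell surface, was at 319 CPM in sham, 302 in WT PNX, 249 in M3cKO and 347 in Foxo1cKO. Lgals3bp, a secreted glycoprotein that binds galectins, was at 282, 316, 295 and 377 CPM in the same order. Both had their highest value in Foxo1cKO, at ratios to WT PNX of 1.15 (1.10 to 1.20) and 1.20 (1.15 to 1.25).

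Rtp4 had a large difference that was spread over many cells. Rtp4, which encodes a chaperone of membrane receptors that also restrains interferon responses, was at 117 CPM (110.5 to 124) in sham, 126 (119.9 to 132) in WT PNX, 107 (99.5 to 116) in M3cKO and 235 (227 to 244) in Foxo1cKO, 1.87-fold (1.76 to 1.99) over WT PNX. Of its transcript windows 11.6% are shared with the overlapping model gene Gm45338. Ifi44 was at 43.4, 41.3, 27.6 and 67.1 CPM in sham, WT PNX, M3cKO and Foxo1cKO, 1.62-fold (1.46 to 1.81) over WT PNX in the last. Trim30a, a brake on Toll-like receptor signalling, was at 72.4 CPM in sham, 54.1 in WT PNX, 53.3 in M3cKO and 54.9 in Foxo1cKO. Ifi35 had the same shape, at 73.8, 52.7, 49.4 and 53.9 CPM. These last 2 genes were highest in sham and nearly level across the 3 PNX libraries.

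**Figure D2:**
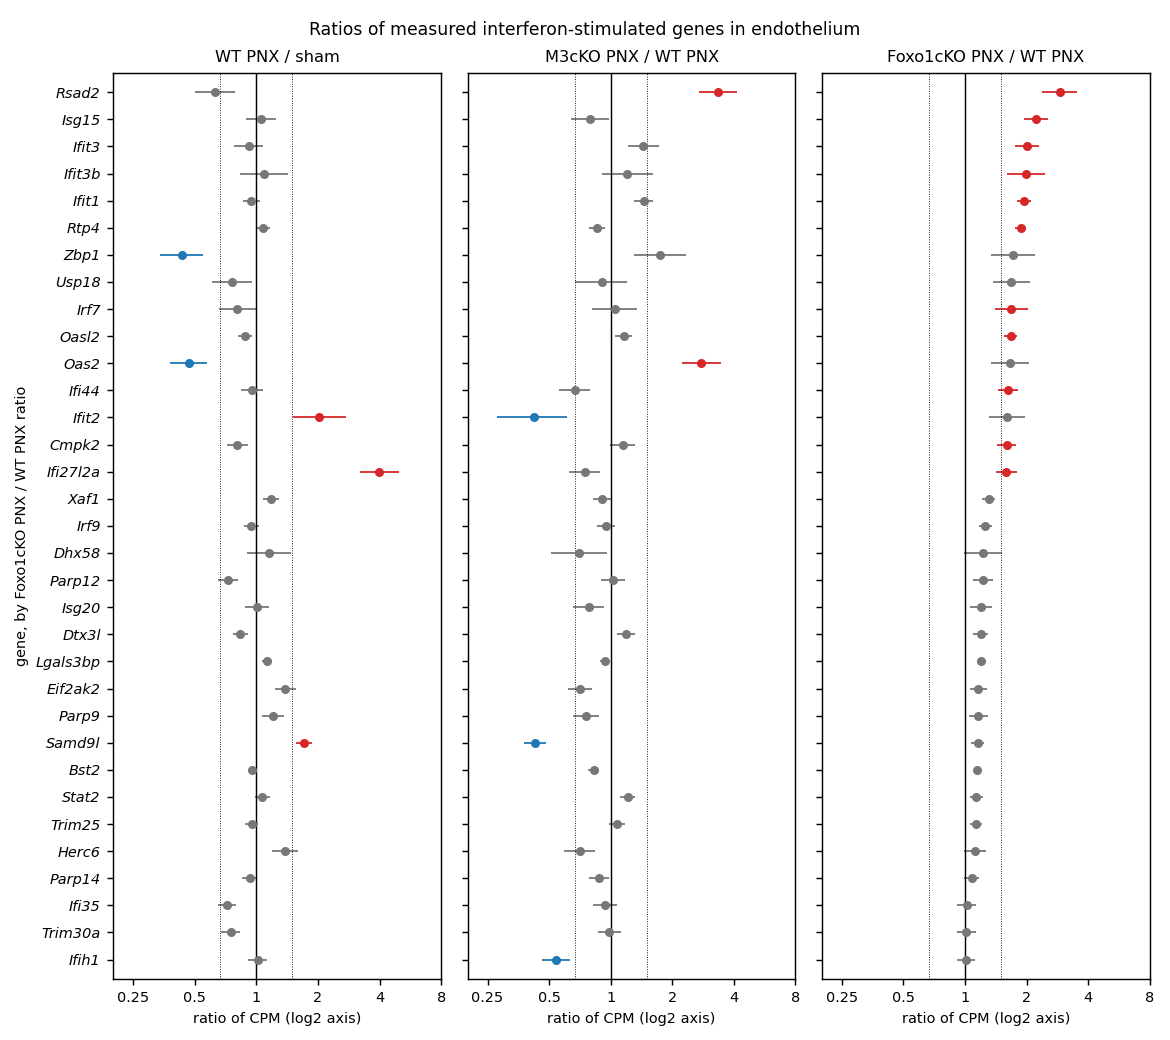
Ratios of CPM in endothelium for the measured genes, on a log2 axis with exact conditional binomial 95% intervals for counting error, 1 panel for each comparison and genes ordered by the ratio of Foxo1cKO to WT PNX. In the Foxo1cKO panel 33 of 33 points lie right of 1, while the other 2 panels have points on both sides.

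Endothelial cells were then divided by marker panels into gates. Genes outside the panels were used to check the gate names. As means of the libraries, Emp2 was at 2527 CPM in aerocytes (the Car4-high capillary cells) and 239 in general capillary cells, Selp at 996 CPM in the venous gate and at most 213 elsewhere, and Cxcl12 at 3667 CPM in the arterial gate and at most 1132 elsewhere. Mgp, another arterial gene, was higher in the venous gate (1609 CPM) than in the arterial one (1415), and Lyve1 was at 4138 CPM in the venous gate beside 4770.2 in the lymphatic one. These genes were chosen after values had been seen. The summed level of the interferon-stimulated genes was lower in the venous gate than in the other gates, apart from the lymphatic and proliferating ones, in each library. The venous sums were 1760 CPM in sham, 1737 in WT PNX, 1473 in M3cKO and 2412 in Foxo1cKO. General capillary cells held 2467, 2505, 2273 and 3178 CPM and aerocytes 2107, 2289, 2197 and 2855 in that order. Every endothelial gate had its highest sum in Foxo1cKO, including the lymphatic gate at 3098 CPM, against 1746 to 1938 in the other libraries.

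Genes differed in how they were spread over the vessel types. Lgals3bp was lowest in the venous gate, at a mean of 65.9 CPM over the libraries, and its highest mean, 421 CPM, was in aerocytes, which led in 2 of the 4 libraries. Ifi27l2a was highest in the lymphatic gate in all 4 libraries, at a mean of 262 CPM against 8.40 in aerocytes. Ifi35 was highest in aerocytes in all 4 libraries (71.8 CPM) and Samd9l in the lymphatic gate in all 4 (157 CPM). Oasl2 was at a mean of 134 CPM in general capillary cells, the highest gate in 1 library, and of 18.6 in the lymphatic gate. Irf9 and Herc6 differed least between gates, with ratios of the highest to the lowest gate of 1.30 and 1.38.

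Foxo1cKO against WT PNX gave more higher than lower genes in each endothelial gate compared. General capillary cells had 11 of 33 higher and 0 lower (background 1.02% and 1.03%), with a median log2 ratio of 0.34. Aerocytes had 7 of 27 higher and 0 lower (1.39% and 1.2%), median 0.28, and the venous gate 11 of 30 and 0 (2.77% and 2.23%), median 0.41. The gate of Col15a1 and Prnd cells, called systemic-type, had 16 of 33 higher and 0 lower (4.91% and 4.27%) with a median of 0.53. Proliferating cells had 10 of 33 and 0 (3.26% and 2.32%), median 0.48. The lymphatic gate, with 65 and 67 cells, had 15 of 30 higher and 3 lower (20% and 20.2%), median 0.62 against 0.01 over all genes. The arterial gate showed the smallest difference, with 3 of 33 higher and 1 lower (2.55% and 2.53%) and a median of 0.09. Whether the gates differ from each other in this could not be tested with 1 library a group.

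Isg15, Rtp4, Ifit1 and Ifit3 had a ratio above 1 in each of 8 endothelial cell sets, the unassigned cells included. Each was past 1.5-fold in 7 of the 8. For Isg15, WT PNX had 22.8 CPM and Foxo1cKO 40.2 in general capillary cells, 16.4 and 36.3 in aerocytes, 25.6 and 54.9 in the venous gate and 24.0 and 86.9 in the systemic-type gate. Rtp4 was at 132 and 239 CPM in general capillary cells, 140.5 and 264 in aerocytes, 101 and 189 in the venous gate and 144 and 283 in the systemic-type gate. Ifit1 was at 59.2 and 174 CPM in the systemic-type gate and at 104 and 131 in the arterial one. Rsad2 changed sign between gates, at 21.9 and 14.5 CPM in general capillary cells and 8.81 and 113 in the systemic-type gate. 

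M3cKO against WT PNX was also read by vessel. Whether the gates differ from each other in this could again not be tested with 1 library a group. In the arterial gate 1 of 33 genes was higher, Oas2, and 9 were lower (background 7.15% and 15%), with a median log2 ratio of -0.43 against -0.10 over all genes. The venous gate had 2 of 30 higher and 8 lower (8.61% and 15.8%), with a median of -0.25 against -0.11. General capillary cells had 2 of 33 higher and 5 lower (5.2% and 11.5%) and a median of -0.11, against -0.12 over all genes. Aerocytes had 4 of 27 higher and 2 lower (5.59% and 11.6%) and a median of -0.07 against -0.10. The systemic-type gate had 5 of 33 higher and 6 lower (8.89% and 15.3%), and proliferating cells 4 of 33 and 6 (8.93% and 13.9%). The lymphatic gate, with 33 cells in M3cKO, had 7 of 30 higher and 5 lower (18.2% and 29%). Samd9l was lower in M3cKO in each of these 7 gates, for example at 38.9 against 106 CPM in general capillary cells and 59.4 against 122 in aerocytes. Oas2, which had 0 UMIs in the lymphatic gate, was higher in each of the other 6, with log2 ratios from 0.61 in proliferating cells to 1.49 in the venous gate.

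WT PNX against sham gave genes in both directions in each gate. General capillary cells had 4 of 33 higher and 2 lower (background 6.31% and 4.52%), aerocytes 2 of 27 and 1 (5.14% and 4.62%), and the arterial gate 3 of 33 and 2 (8.09% and 6.48%). The venous gate had 4 of 30 higher and 5 lower (9.52% and 8.45%) and the systemic-type gate 4 of 33 and 5 (15.1% and 10.4%). The lymphatic gate had 5 of 30 higher and 8 lower (19.4% and 20.6%). Samd9l was higher in all 6 of these gates. Sham held 24 proliferating cells, too few for a comparison.

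**Figure D3:**
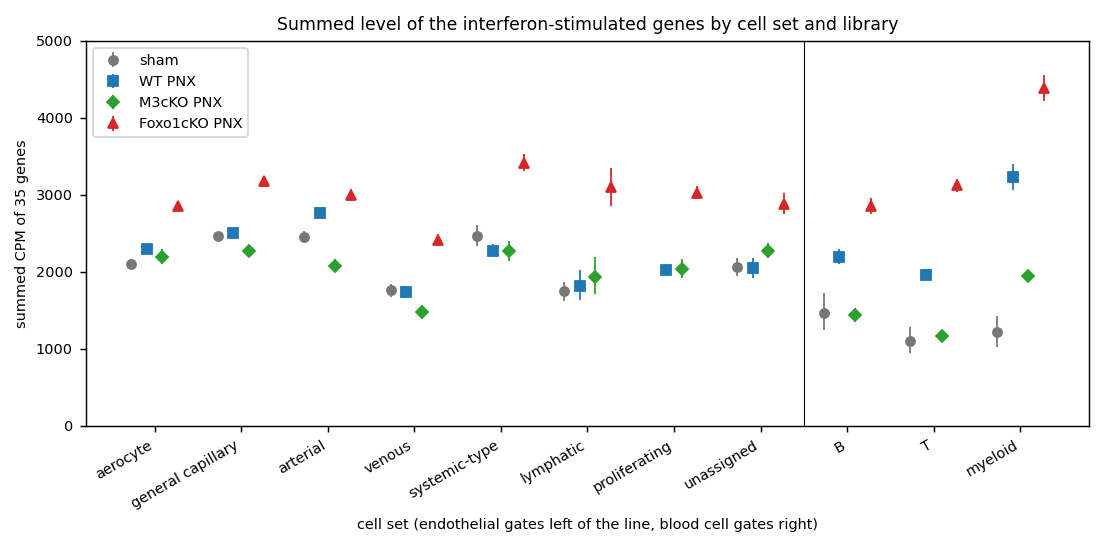
Summed CPM of the 35 genes by cell set (x axis) and library (markers, bars are exact Poisson 95% intervals for counting error), with endothelial gates left of the line and blood cell gates right of it. Foxo1cKO is the highest library in every set shown, for example at 3178 CPM in general capillary cells and 3120 in T cells.

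Blood cells that had come through the bead selection were read in the same way, by gates on B, T, NK and myeloid markers. NK cells numbered 0 to 13 a library and were not compared. T cells had the summed levels 1104 CPM in sham (73 cells), 1963 in WT PNX (578 cells), 1168 in M3cKO (1209 cells) and 3120 in Foxo1cKO (792 cells). B cells held 1465, 2194, 1437 and 2848 CPM and myeloid cells 1212, 3224, 1945 and 4383 CPM in that order. All 3 blood cell types had WT PNX above sham and M3cKO below WT PNX. The endothelial sums gave a ratio of 1.00 (0.986 to 1.02) for the first pair and 0.939 (0.921 to 0.958) for the second.

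The Foxo1cKO library was the highest in blood cells as well. In T cells 17 of 29 measured genes were higher than in WT PNX and 0 lower (background 3.29% and 3.5%), with a median log2 ratio of 0.70 and 29 of 29 above 0. In B cells 6 of 23 were higher and 0 lower (4.79% and 6.16%), median 0.48, and in myeloid cells 9 of 31 higher and 3 lower (14% and 10.9%), median 0.41. The shares in myeloid cells were thus nearer the background. In T cells Isg15 had 11.5 CPM for WT PNX and 31.6 for Foxo1cKO, Ifit1 42.3 and 106, and Ifi27l2a 504 and 967. Foxo1 itself was not lower in these cells by the same margin as in endothelium, with 385 CPM for WT PNX and 357 for Foxo1cKO in T cells and 442 and 419 in B cells. Ptprb, an endothelial gene, was at 33.1 and 23.9 CPM in the T cells of these libraries against 2063 and 1913 in endothelium, and the part of RNA carried over from endothelium in the T cell values was not tested. A difference between libraries that all cells share cannot be told apart from one of genotype.

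M3cKO against WT PNX was lower in blood cells. In T cells 0 of 29 were higher and 12 lower (background 11.7% and 15.9%), median -0.56 against -0.12 over all genes. In B cells 2 of 23 were higher and 10 lower (7.12% and 26.6%), median -0.46 against -0.26, so all genes were lower there too. In myeloid cells 0 of 31 were higher and 20 lower (16.4% and 13.7%), median -0.85 against 0.01. WT PNX against sham went the other way, with 16 of 29 higher and 1 lower in T cells (22.7% and 17.6%), 12 of 23 and 1 in B cells (26.4% and 17.4%) and 21 of 31 and 1 in myeloid cells (28.5% and 23.8%). Sham held 62 B, 73 T and 60 myeloid cells, so its values there rest on few UMIs, and the myeloid gate pools several cell types whose proportions were not compared. Samd9l in B cells repeated its endothelial pairing, at 171 CPM in sham, 500.5 in WT PNX, 169.9 in M3cKO and 470.4 in Foxo1cKO. In T cells it was at 109.8, 206, 70.1 and 206 CPM.

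**Figure D4:**
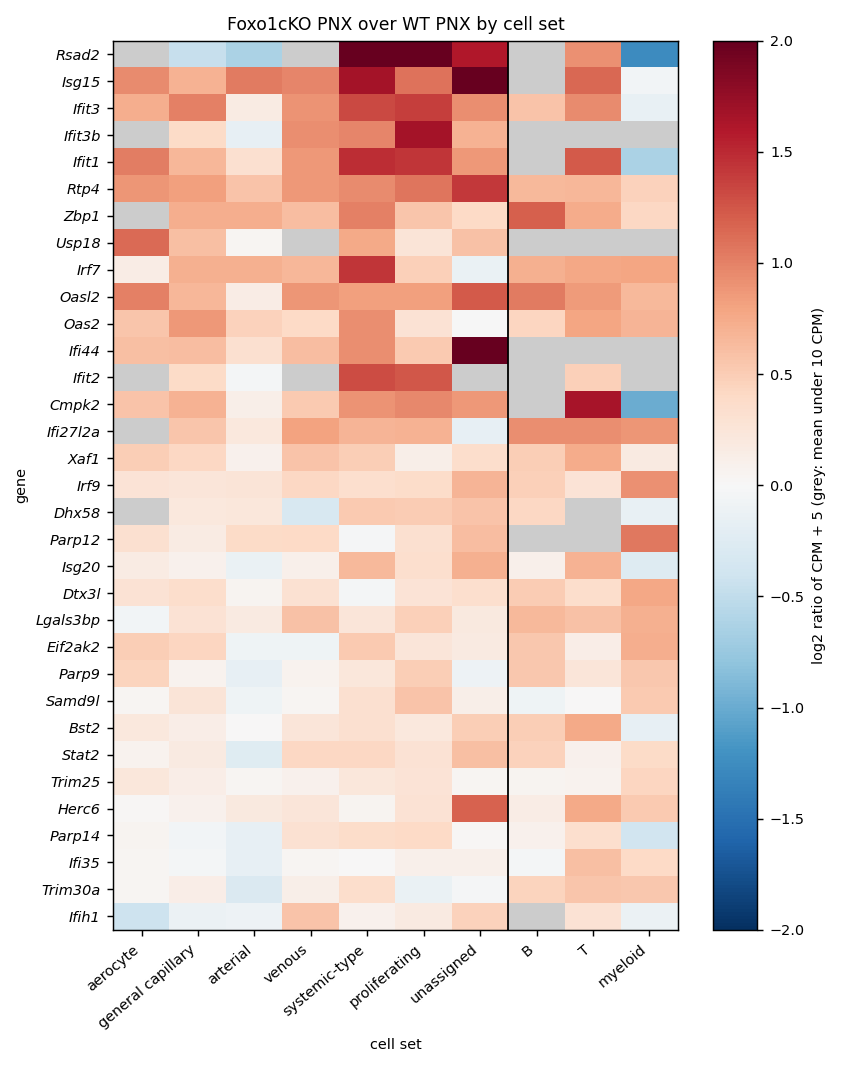
Log2 ratio of Foxo1cKO to WT PNX (CPM + 5) for the 33 measured genes (rows) by cell set (columns, blood cells right of the line). The lymphatic gate is not shown. Red is higher and blue lower in Foxo1cKO, and grey marks a mean under 10 CPM. Rtp4 is red in every set shown, while Rsad2 is red in systemic-type and proliferating cells and blue in general capillary, arterial and myeloid cells.

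The difference in endothelium was a shift over many cells. Each cell was thinned to 2000 UMIs to hold depth equal, which left 2011 sham, 2740 WT PNX, 1294 M3cKO and 2536 Foxo1cKO cells and left out 2654, 1147, 1197 and 1275 shallower ones. The mean number of UMIs of the 35 genes per thinned cell was 4.34 in sham, 4.59 in WT PNX, 4.15 in M3cKO and 5.86 in Foxo1cKO, and the median 4, 4, 3 and 5. Cells with at least 10 such UMIs made up 7.06% in sham (exact binomial interval 5.98 to 8.27), 6.97% in WT PNX (6.05 to 7.99), 6.11% in M3cKO (4.86 to 7.55) and 15.5% in Foxo1cKO (14.1 to 17.0). The first 3 intervals overlapped and that of Foxo1cKO lay above them. Before thinning, at least 20 UMIs were held by 2.17%, 6.74%, 3.25% and 10.9% of cells in that order, at median depths of 1841, 2640, 2070 and 2474 UMIs. Cells are not replicates, and no cell type in the files should lack these genes, so no background share is given.

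Single genes were detected in more cells too. After thinning, Rtp4 had a UMI in 17.5% of sham, 20.4% of WT PNX, 17.2% of M3cKO and 33.4% of Foxo1cKO endothelial cells (18.9%, 28.3%, 18.6% and 40.3% before). Ifit1 was detected in 8.35%, 8.5%, 8.35% and 14.9% of thinned cells (8.94%, 12.4%, 10.5% and 18.8% before). Its higher CPM in M3cKO than in WT PNX thus did not come with a larger share of cells. Isg15 was detected in 4.18%, 4.45%, 3.32% and 8.24% of thinned cells (4.27%, 6.61%, 3.73% and 11.8% before). The high thinned cells of Foxo1cKO lay in several vessel gates: 102 of 583 general capillary cells, 94 of 626 aerocytes, 68 of 392 arterial and 32 of 344 venous cells reached 10 UMIs, against 70 of 756, 32 of 551, 36 of 346 and 13 of 374 in WT PNX. The 1% of endothelial cells with the most UMIs of these genes held 6.07% of them in sham, 7.65% in WT PNX, 9.91% in M3cKO and 8.15% in Foxo1cKO.

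**Figure D5:**
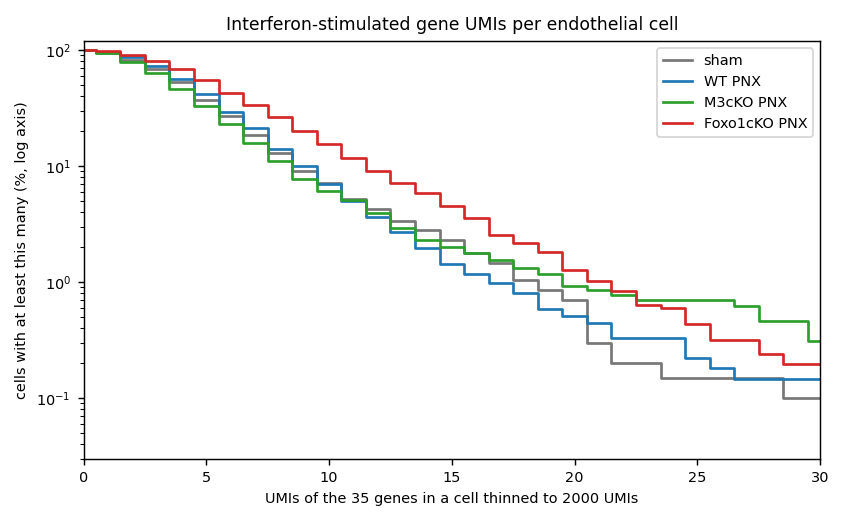
Percent of endothelial cells (log axis) with at least the number of UMIs of the 35 genes on the x axis, after thinning each cell to 2000 UMIs, 1 line a library. At 10 UMIs the Foxo1cKO line stands at 15.5% and the others between 6.11% and 7.06%.

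Within the Foxo1cKO library the genes also differed by the sex transcripts of the cells. The split was chosen with earlier values known, and the comparison with female-type cells after seeing the data. Male-type cells, in which Y-linked genes but not Xist were detected, numbered 574 (median 3400.5 UMIs) and held 3373 summed CPM (3301 to 3446). Female-type cells, in which Xist but no Y-linked gene was detected, numbered 932 (median 2987 UMIs) and held 2572 (2520.1 to 2624). In WT PNX the same cell types held 2325 CPM (798 cells, median 4141 UMIs) and 2078 (938 cells, median 2683 UMIs). Most endothelial cells fell in neither type: 2273 of 3811 in Foxo1cKO and 2118 of 3887 in WT PNX had no transcript of either kind detected. The part of depth in the differences between the types was not tested. Male-type cells of Foxo1cKO had 10 of 33 genes higher and 0 lower than its female-type cells, where 2.82% of all genes were higher and 1.64% lower, and those of WT PNX 4 higher and 0 lower (1.7% and 1.69%). Ifit1 was at 205 CPM in male-type and 91.6 in female-type cells of Foxo1cKO, and at 63.9 and 53.8 in WT PNX. Foxo1 was at 127 CPM (113 to 142) in the male-type and 37.0 (31.0 to 43.7) in the female-type cells of Foxo1cKO. In WT PNX it was at 212 CPM in male-type and 218 in female-type cells. The numbers of animals of each sex are not given, and differences between animals cannot be told apart from those between sexes.

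Foxo1cKO stayed above WT PNX in both types of cell. The summed ratio was 1.45 (1.41 to 1.49) in male-type cells, with 13 of 33 genes higher and 0 lower (background 2.29% and 1.63%) and a median log2 ratio of 0.44. It was 1.24 (1.20 to 1.28) in female-type cells, with 10 higher and 0 lower (1.8% and 2.51%) and a median of 0.19. Rtp4 had 133 CPM for WT PNX and 261 for Foxo1cKO in male-type cells, and at 107 and 211 in female-type cells. Ifi27l2a differed in male-type cells, at 51.4 and 96.0 CPM, and was nearly level in female-type cells at 23.1 and 25.6.

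The pathway around these genes was read from 5 further lists. Of 21 interferon ligand genes, type I, II and III, 0 were measured in endothelium. Ifna16 and Ifnz had 1 UMI each in Foxo1cKO and Ifng 4 in M3cKO, and all others had 0 in all 4 libraries. Receptors and signalling genes were nearly level: in Foxo1cKO against WT PNX 0 of 16 measured were higher and 0 lower, with a median log2 ratio of 0.01. Of all genes 0.562% were higher and 0.551% lower. The receptor chains Ifnar1 and Ifnar2 were at 70.3 and 164 CPM in WT PNX and 79.9 and 178 in Foxo1cKO. Irf1, a factor that interferon gamma induces strongly, was at 404, 288, 435 and 271 CPM in the order sham, WT PNX, M3cKO and Foxo1cKO, and Stat3 at 290.2, 220.1, 284 and 198, both higher in sham and M3cKO than in the other pair. Irf8, a factor of myeloid and lymphoid cells, was at 15.1, 18.3, 31.3 and 18.3 CPM. Irf1 and Irf8 were the 2 genes of 16 that were higher in M3cKO than in WT PNX, where 4.67% of all genes were higher.

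Nucleic acid sensing genes had 0 of 12 measured higher and 0 lower in Foxo1cKO against WT PNX (background 0.562% and 0.551%, median -0.07). In M3cKO against WT PNX 0 were higher and 2 lower, where 4.67% of all genes were higher and 8.65% lower. The 2 were Ifi203 at 76.6 against 186 CPM and Tmem173, which encodes the adaptor STING, at 17.7 against 29.2. Tmem173 was also the 1 gene of the 12 that was higher in WT PNX than in sham, at 29.2 against 17.0. Of all genes 7.38% were higher there. Tlr3, a sensor of double-stranded RNA in endosomes, had 36.2 CPM for WT PNX and 22.8 for M3cKO, and Samhd1, which breaks down nucleotides, 117 and 81.0, both within the rule.

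Genes that interferon gamma induces most differed in another comparison. In WT PNX against sham 7 of 12 measured were lower and 0 higher, where 4.68% of all genes were lower and 7.38% higher, with a median of -0.62 against 0.04 over all genes. Among the named ones, the GTPase Igtp had 187 CPM in sham against 65.4 in WT PNX, Irgm2 at 121 and 63.9, and Ciita, the master regulator of class II antigen presentation, at 37.5 and 18.6. The immunoproteasome subunit Psmb8 was instead lower in M3cKO (149.6 CPM) than in WT PNX (272). In Foxo1cKO against WT PNX 1 of the 12 was higher, Igtp at 105 CPM, and the median was 0.30. Of 31 other interferon-inducible genes 1 was higher and 1 lower in that comparison (0.562% and 0.551% of all genes), with a median of 0.17. The higher one was Ifi208, at 70.2 against 24.0 CPM, and the lower one Ifi204, at 3.56 against 68.1. Ifi204 stood high in WT PNX alone (1.53 CPM in sham, 1.39 in M3cKO). Gbp9, a guanylate binding protein, had the pairing of Samd9l, at 41.8 CPM in sham, 115 in WT PNX, 29.3 in M3cKO and 129.7 in Foxo1cKO, and Ifitm1 the opposite one, at 48.0, 5.62, 32.8 and 9.80 CPM.

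The promoter motif shown above did not divide the genes sharply by their response. Of the 25 measured genes with a promoter in the table, the 10 with the motif had a median log2 ratio of 0.46 in Foxo1cKO against WT PNX, ranging from 0.01 (Ifih1) to 1.20 (Rsad2), and 5 of them were higher. The 15 without had a median of 0.27, ranging from 0.03 to 0.71, and 4 were higher. Of all genes 0.562% were higher in that comparison. In M3cKO against WT PNX the medians were 0.08 and -0.08. Among the 10, 1 gene was higher and 1 lower, and among the 15, 0 were higher and 2 lower. Of all genes 4.67% were higher and 8.65% lower.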

How the data were processed

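The 4 groups have 1 library each, so no test was possible and a gene was counted by a rule of size. Libraries were sequenced on a NovaSeq 6000 and processed with Cell Ranger 2.1.1 on the mm10 genome, per the labels. R 3.4.4 stands in the submitters' processing notes, and 3.0.0 is the software version per the file headers. What the authors deposited are UMI counts by gene and barcode, not normalized, and every barcode had at least 500 UMIs.

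Counts of gated cells were summed per library and scaled to CPM. Levels carry exact Poisson, ratios exact conditional binomial and shares exact (Clopper-Pearson) binomial intervals at 95%, for counting error only. Log2 ratios use a pseudocount of 5 CPM, which understates the ratios of low genes. Doublets were removed only through the gate's 4 excluded genes, and Scrublet scores (the highest removed at 0.8% per 1000 barcodes) were an alternative. An endothelial gate needed at least 2 panel genes and the highest mean score, and proliferating cells at least 3 UMIs of 10 cycle genes. A blood cell gate needed at least 2 of its markers, more than any other blood class, at most 1 endothelial UMI and no Epcam, Col1a1 or Col1a2. Sets of under 30 cells in a library were not compared. Coordinates and transcripts come from GENCODE M21 (GRCm38) and promoters from RefSeq.

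Values in all libraries are given for genes with a mean of at least 50 CPM, or at least 10 CPM and 1.5-fold apart in a comparison, and the rest by range. Of each further list up to 4 genes with the largest log2 ratio were named, and always Ifnar1, Ifnar2 and Irf1, and 1 gene of these lists is not reported here. The members and lists were chosen with earlier results of these data known. The 1.5-fold rule and the ratio intervals were tried on simulated counts, and the gating and summing of cells were not. Python 3.11.15 with numpy 2.4.6, scipy 1.17.1, pandas 2.3.3, scanpy 1.11.5, anndata 0.12.19 and matplotlib 3.10.9 was used, and edgeR 4.0.16 in R 4.3.3 for the TMM factors of an alternative scaling.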

Additional observations from a re-analysis of the deposited data

Results flagged for a closer look

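Rsad2, Cmpk2 and Oas2 differed in opposite directions between cell types under the same comparison. These differences between cell types were not tested, since each rests on 1 library a group.

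Rsad2 in M3cKO against WT PNX had a log2 ratio of 1.38 in endothelium and -1.46 in myeloid cells. In Foxo1cKO against WT PNX Rsad2 was at 1.20 in endothelium and 0.91 in T cells but -1.25 in myeloid cells. Its neighbour Cmpk2 followed in the same comparison, at 0.62 in endothelium, 1.65 in T cells and -0.99 in myeloid cells. Oas2 in M3cKO against WT PNX was at 1.15 in endothelium and -1.67 in T cells. Much of the Rsad2 RNA in endothelium lay in few cells, as given above.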

How the results depend on the processing

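Foxo1cKO against WT PNX kept its direction under 12 other ways of processing and 1 more chosen after seeing the data, the female-type cells: 10 to 15 genes were higher, 0 lower, and the median log2 ratio was 0.19 to 0.44. The median of 0.19 was that of the female-type cells. Of the 11 genes, Cmpk2 was lost with at most 5% mitochondrial UMIs, in thinned cells and without proliferating cells, Ifit3b without proliferating cells, Irf7 with Scrublet scores removed and with TMM factors, and Rsad2, whose mean fell under the 10 CPM floor, without the 1% of cells richest in the listed genes. The other 7 were lost under none of the 12. The female-type cells, outside the 12, lost Oasl2, Ifi27l2a, Cmpk2 and Irf7, which were within the rule. Their WT PNX levels there were 93.4, 23.1, 38.8 and 14.4 CPM, and the Foxo1cKO levels 129, 25.6, 53.8 and 17.1. The remaining genes of the 11 stayed higher in female-type cells, and Ifit2, Oas2 and Zbp1 joined them. In WT PNX against sham 2 to 4 genes were higher and 1 to 3 lower: 1 was lower with at most 5% mitochondrial UMIs, in male-type cells and in thinned cells. With at most 5% mitochondrial UMIs that gene was Ifi35, since Oas2 was within the rule and Zbp1 fell under the 10 CPM floor. The median was 0.13 with at most 5% mitochondrial UMIs. In M3cKO against WT PNX 4 genes were higher with TMM factors, which shifted the median of all genes by 0.11, 4 with at most 5% mitochondrial UMIs and 1 without the 1% of cells richest in the listed genes, where Rsad2 fell under the floor. In male-type cells 2 were higher and 7 lower, at a median of -0.25. The causes of the other shifts were not tested. No paired analysis was possible because each group is 1 library. Depth limits the genes under about 10 CPM: Oas3 had an interval of 0.155 to 1.11 CPM in sham.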
